A study of Mus musculus with 15 samples.

Results

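The genes described here are 10 genes of the endoplasmic reticulum (ER) stress response, measured in the hearts of mice treated with methamphetamine (meth) or phosphate-buffered saline (PBS). They were chosen by name, as the non-control array probes whose accession belongs to Hspa5, Hsp90b1, Dnajb9, Dnajc3, Herpud1, Xbp1, Atf4, Ddit3, Trib3 or Asns. These were 17 probes of 10 genes, out of 41174 probes, of which 26918 were matched to 18350 named genes. C57BL/6 mice, 8 to 10 weeks old at the start, were injected weekly into the abdomen for 5 months (20 weeks) with PBS or with meth, whose dose rose by 2 mg a week to 40 mg/kg. RNA of whole hearts was hybridised to Agilent 1-colour arrays, 1 mouse to an array, which gave 4 male meth, 4 male PBS, 4 female meth and 3 female PBS hearts. Males came from 2 trials, with 2 mice of each treatment per trial. The females came from 1 trial by their titles and the methods, although another label field puts 3 of them in trial 2. The male meth hearts are from mice that lived through a treatment during which other males died, so they are hearts of survivors.

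The ER folds secreted and membrane proteins. When unfolded proteins build up there, the sensors IRE1, PERK and ATF6 start the unfolded protein response. IRE1 splices the Xbp1 messenger RNA, ATF6 is cut to release a transcription factor, and PERK phosphorylates eIF2alpha, which slows translation while the Atf4 messenger RNA is translated more. XBP1 and ATF6 raise chaperones and degradation factors. ATF4 raises amino acid enzymes and the transcription factor CHOP, and this arm also answers to amino acid shortage and other stresses without the ER. In the heart the response accompanies overload, ischemia and heart failure. The arrays measure the amount of messenger RNA, and neither Xbp1 splicing nor the phosphorylation or translation steps.

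The promoters of the 10 genes were read from RefSeq (GRCm38.p6), which had an entry for each, from 250 bases before the transcription start to 50 bases after it. Each was searched on both strands for the ER stress element (CCAAT, any 9 bases, CCACG), its second form (ATTGG, any 1 base, CCACG), the core of the unfolded protein response element (TGACGTGG) and the C/EBP-ATF composite element (TGATG, any 1 base, AAT). The ER stress element lay in the windows of Hspa5, Hsp90b1 and Dnajc3, and in 39 of 32851 RefSeq promoters of this length (0.119%). It began 65 bases before the start of Hspa5, farther upstream in Dnajc3, and at 212 and, on the opposite strand, 107 before that of Hsp90b1. The second form lay 52 bases before the start of Herpud1 and in 12 promoters (0.0365%). The other motifs, present in 222 (0.676%) and 317 (0.965%) promoters, were in none of the 10 windows in the exact forms searched. The Asns window holds TGATGAAAC, which differs from the C/EBP-ATF form searched only in its last base. The Trib3 window holds tttacatca and the Herpud1 window gttgcatca, which read on the opposite strand also differ from this form only in the last base. Looser forms of the motifs were not searched. A match is a run of letters and no measured binding site. The 4 promoters with a match are shown with the matched bases in capitals. Those of Ddit3 and Trib3, the genes that passed the test below, follow and hold no exact match.
Hspa5 promoter, chr2:34771840-34772139, plus strand: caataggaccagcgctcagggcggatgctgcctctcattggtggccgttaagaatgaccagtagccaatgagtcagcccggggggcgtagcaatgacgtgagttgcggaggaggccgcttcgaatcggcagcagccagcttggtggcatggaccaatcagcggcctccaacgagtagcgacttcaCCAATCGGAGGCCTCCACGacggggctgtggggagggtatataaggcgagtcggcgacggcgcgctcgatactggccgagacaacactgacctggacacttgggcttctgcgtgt
Hsp90b1 promoter, chr10:86705395-86705694, minus strand: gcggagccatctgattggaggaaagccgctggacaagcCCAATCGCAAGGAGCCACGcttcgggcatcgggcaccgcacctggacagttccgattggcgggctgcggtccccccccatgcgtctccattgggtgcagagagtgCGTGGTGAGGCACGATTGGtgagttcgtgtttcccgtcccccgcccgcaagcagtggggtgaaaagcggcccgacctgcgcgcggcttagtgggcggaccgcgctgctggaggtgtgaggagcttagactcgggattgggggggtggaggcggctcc
Dnajc3 promoter, chr14:118937682-118937981, plus strand: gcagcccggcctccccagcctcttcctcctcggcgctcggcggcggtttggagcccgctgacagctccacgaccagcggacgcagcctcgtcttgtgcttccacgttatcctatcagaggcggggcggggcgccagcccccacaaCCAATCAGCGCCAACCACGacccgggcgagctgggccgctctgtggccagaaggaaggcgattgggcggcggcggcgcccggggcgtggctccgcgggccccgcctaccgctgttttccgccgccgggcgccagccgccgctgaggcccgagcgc
Herpud1 promoter, chr8:94386179-94386478, plus strand: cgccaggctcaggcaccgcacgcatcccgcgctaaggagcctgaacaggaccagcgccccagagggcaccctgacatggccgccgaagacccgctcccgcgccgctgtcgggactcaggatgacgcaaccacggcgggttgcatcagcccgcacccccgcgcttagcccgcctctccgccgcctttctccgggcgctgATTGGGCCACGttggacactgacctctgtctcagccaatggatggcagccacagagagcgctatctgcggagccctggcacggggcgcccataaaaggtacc
Ddit3 promoter, chr10:127290543-127290842, plus strand: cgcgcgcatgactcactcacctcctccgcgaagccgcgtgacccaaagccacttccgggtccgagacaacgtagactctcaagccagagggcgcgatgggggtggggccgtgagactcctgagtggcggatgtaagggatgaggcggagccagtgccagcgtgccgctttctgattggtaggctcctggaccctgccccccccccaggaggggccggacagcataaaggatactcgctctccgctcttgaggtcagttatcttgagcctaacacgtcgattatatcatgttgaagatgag
Trib3 promoter, chr2:152344011-152344310, minus strand: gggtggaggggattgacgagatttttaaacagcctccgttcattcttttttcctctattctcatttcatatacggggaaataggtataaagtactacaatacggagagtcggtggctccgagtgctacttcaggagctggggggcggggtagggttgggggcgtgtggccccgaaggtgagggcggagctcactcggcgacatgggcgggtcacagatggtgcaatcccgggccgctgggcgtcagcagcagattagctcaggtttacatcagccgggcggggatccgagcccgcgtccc

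In each heart, a level is given as the log2 signal of the probe minus the 75th percentile of all probes on that array, so that 0 equals this percentile. The 17 probes were well above background on all 15 arrays, and none was missing on any. Slide 4, with female meth replicates 3 and 4 and female PBS replicate 3, was brighter than the rest, with this percentile at 438 to 589 against 307 to 403 elsewhere. An array had 61.4% to 71.4% of its probes well above background. Each slide held both treatments. The 8 cardiomyocyte markers looked for, Myh6 and Tnnt2 among them, were well above background on every array, and 0 of 8 passed the test below in either sex (unadjusted p under 0.05 for 0). A gene is given by its brightest probe. Meth was compared with PBS in males, in females and as the mean of both sexes with limma in 1 fit with the trial as a covariate, with Benjamini-Hochberg adjustment across the 28367 probes that entered the test and 0.05 as the threshold. These p-values measure the spread between mice mixed with that between slides and scan sessions, which the main fit does not model beyond the trial. The small number of arrays limits their precision. In whole-heart RNA, fewer cells of a type and less RNA per cell cannot be told apart.

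**Figure D1:**
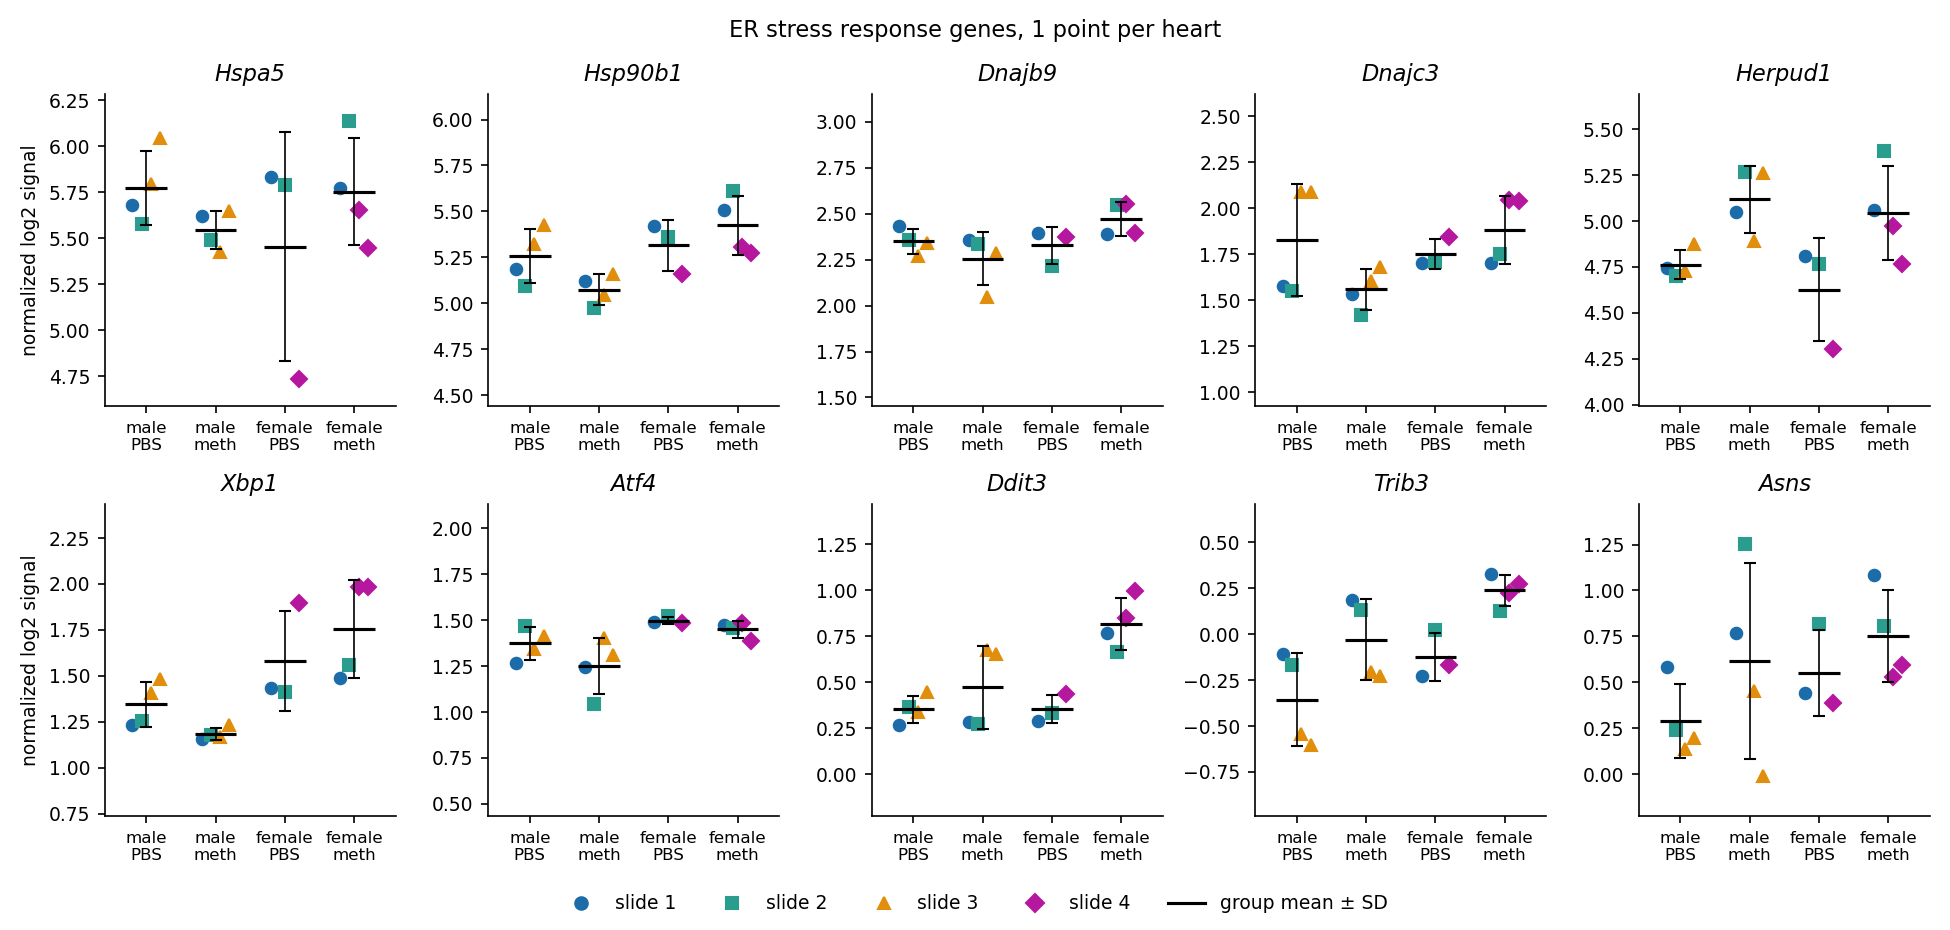
Normalized log2 signal (vertical axis, a span of 1.7 in each panel) of the 10 genes in each heart, by group. Points are hearts with the slide as symbol, and lines are group means with SD. Trib3 and Ddit3 are higher on the 4 female meth arrays than on the 3 female PBS arrays, and the low Hspa5 value of 4.73 is female PBS replicate 3 on slide 4.

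Of the 10 genes, Trib3 was raised in the hearts of meth-treated mice over both sexes together, by 27% (1.27-fold, 95% confidence interval 1.18 to 1.37), and Ddit3 by 22% (1.22-fold, 1.11 to 1.35). The chaperones and Xbp1 did not pass the test in either sex. These 2 of 10 genes passed where 2.23% of the 14226 genes tested did. In males 1 of 10 passed (Trib3), with 1.34% of all genes, and in females 1 of 10 (Ddit3), with 0.443%. The 10 genes were chosen with earlier results of these data known, so these shares are a description. The median log2 fold change of the 10 genes was -0.11 in males, 0.19 in females and 0.030 over both, beside -0.019, 0.027 and 0.0047 for all genes tested.

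Trib3 (probe A_51_P331570) encodes tribbles pseudokinase 3, a target of ATF4 and CHOP that binds the kinase AKT and restrains ATF4 in turn. In trial 1 males it was at 0.19 and 0.13 after meth and at -0.11 and -0.17 after PBS. In trial 2 males it was at -0.21 and -0.23 after meth and at -0.54 and -0.60 after PBS. Trial 2 lay below trial 1 in both treatments, and within each trial both meth hearts lay above both PBS hearts. The male log2 fold change was 0.33 (standard error 0.070, adjusted p = 0.0488), or 0.30 within trial 1 and 0.36 within trial 2. In females it was at 0.33, 0.13, 0.22 and 0.27 after meth and at -0.23, 0.02 and -0.17 after PBS, so that the groups did not overlap. The exact permutation test gave p = 0.0286, the smallest that free regrouping of these arrays allows. It exchanges arrays whatever their slide or trial, although arrays of 1 slide shared deviations. This p-value and those of the same test between groups below may therefore be too small. The female log2 fold change was 0.36 (standard error 0.076) and just missed the threshold (adjusted p = 0.0512). The mean over both sexes was 0.34 (standard error 0.052, adjusted p = 0.00465).

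The call of Trib3 over both sexes held with each of the 15 arrays left out in turn. It was lost with normexp background correction (0.28, adjusted p = 0.0567), with no trial term (adjusted p = 0.110) and with trial 1 alone (adjusted p = 0.106). When meth and PBS arrays of 1 slide were paired by replicate number (the replicate block), its adjusted p was 0.0426. In males alone the call was lost with this block (adjusted p = 0.129) and held with 1 array left out only where that array was female meth replicate 2 or female PBS replicate 2. The other Trib3 probe (A_52_P600274) was also higher after meth in each sex without passing, by 0.33 for males (adjusted p = 0.255), 0.21 for females (adjusted p = 0.611) and 0.27 over both (adjusted p = 0.138).

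Ddit3 (A_52_P533146) encodes CHOP, the transcription factor tied to cell death in lasting ER stress. Female meth hearts were at 0.77, 0.66, 0.85 and 1.00 and female PBS hearts at 0.29, 0.34 and 0.44, without overlap (exact permutation test, p = 0.0286). The female log2 fold change was 0.46 (standard error 0.094, adjusted p = 0.0462), a 1.38-fold level (95% confidence interval 1.20 to 1.59). Without the arrays of slide 4 it was 0.40 (adjusted p = 0.202). With the replicate block the adjusted p was 0.135, and with 1 array left out the call held only without female meth replicate 2.

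In males, Ddit3 was at 0.28 and 0.27 after meth and 0.27 and 0.37 after PBS in trial 1. In trial 2 it was at 0.68 and 0.65 after meth and 0.34 and 0.45 after PBS. Both trial 2 meth hearts thus stood above every male PBS heart, and neither trial 1 meth heart did. Trial 1 alone had a log2 fold change of -0.039 and trial 2 one of 0.27, with 0.12 for all males (standard error 0.087, adjusted p = 0.628). The difference between the trials was 0.31 and did not pass (adjusted p = 1.00), nor did any of the 14226 genes in limma (0%, with 602 at an unadjusted p under 0.05). The mean over both sexes was 0.29 (standard error 0.064, adjusted p = 0.0353). That call was lost with the replicate block (adjusted p = 0.0869), and with 1 array left out it held without any of male meth trial 1 replicates 1 and 2, male PBS trial 1 replicate 2, female meth replicate 2 and female PBS replicate 3, and missed the threshold for the 10 others.

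Herpud1 (A_51_P434101) encodes a membrane protein of ER-associated degradation, the pathway that sends misfolded proteins to the proteasome. In males it was at 5.05, 5.27, 4.89 and 5.26 after meth and 4.74, 4.70, 4.73 and 4.88 after PBS. Each male meth heart lay above each male PBS heart (exact permutation test, p = 0.0286). In females it was at 5.06, 5.38, 4.97 and 4.76 after meth and 4.81, 4.77 and 4.30 after PBS, with overlap. The log2 fold change was 0.36 in males (standard error 0.15, adjusted p = 0.326), 0.42 in females (standard error 0.16, adjusted p = 0.316) and 0.39 over both sexes (standard error 0.11, adjusted p = 0.0860). Herpud1 did not pass in this fit, and over both sexes it passed with the replicate block (adjusted p = 0.0370) and with the slide as a block (adjusted p = 0.0147).

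**Figure D2:**
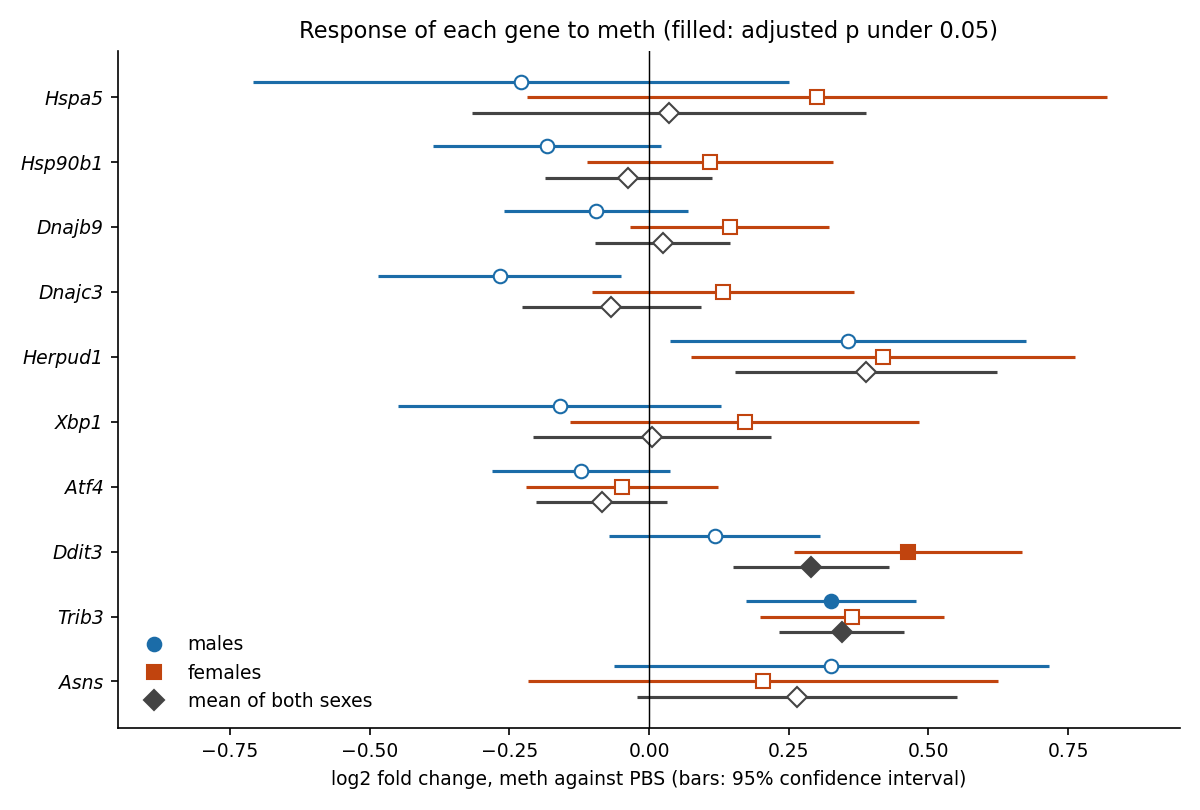
Log2 fold change of the 10 genes after meth against PBS (horizontal axis) in males, in females and as the mean of both, with 95% confidence intervals. Filled symbols passed the adjusted threshold, which were Trib3 in males (0.33), Ddit3 in females (0.46) and both genes in the mean (0.34 and 0.29).

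By their brightest probes, the chaperones passed in neither sex. Hspa5 (A_51_P395098) encodes BiP, the main chaperone of the ER, which also holds the sensors inactive. In males it was at 5.62, 5.49, 5.42 and 5.65 after meth and 5.68, 5.58, 5.79 and 6.04 after PBS. The log2 fold change was -0.23 (95% confidence interval -0.71 to 0.25, adjusted p = 0.726). In females it was at 5.77, 6.14, 5.65 and 5.45 after meth and 5.83, 5.79 and 4.73 after PBS, a log2 fold change of 0.30 (-0.22 to 0.82, adjusted p = 0.738). The positive female value rests on female PBS replicate 3, without which it was -0.059. As folds, the intervals run from 0.612 to 1.19 in males and from 0.860 to 1.76 in females.

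Hsp90b1 (A_52_P624149), which encodes GRP94, the HSP90 of the ER, was at 4.97 to 5.16 in male meth hearts and 5.10 to 5.43 in male PBS hearts. Its log2 fold change was -0.18 (95% confidence interval -0.39 to 0.021, adjusted p = 0.448) in males and 0.11 (-0.11 to 0.33, adjusted p = 0.790) in females. The other Hsp90b1 probe (A_52_P590546) had -0.28 in males (-0.47 to -0.091), an interval below 0, and did not pass (adjusted p = 0.186). In females it had 0.029 (-0.17 to 0.23, adjusted p = 0.959). Dnajb9 (A_51_P198835), a J-protein that hands substrates and IRE1 to BiP, was at 2.04 to 2.36 in male meth hearts and 2.27 to 2.43 in male PBS hearts. Its log2 fold change was -0.095 (-0.26 to 0.069) in males and 0.14 (-0.033 to 0.32) in females, and its other 2 probes had the same signs.

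Dnajc3 (A_52_P329881) encodes P58IPK, a J-protein that assists BiP and inhibits PERK. In males it was at 1.53, 1.42, 1.60 and 1.68 after meth and 1.58, 1.55, 2.09 and 2.09 after PBS, so that the 2 PBS hearts of trial 2 stood above the rest. The log2 fold change was -0.27 (standard error 0.10, adjusted p = 0.277), from -0.088 in trial 1 and -0.45 in trial 2. Each of its 4 probes had a negative male value, from -0.12 to -0.41. For the probe at -0.41 (A_51_P204237) every male meth heart lay below every male PBS heart, and it did not pass in all males (adjusted p = 0.0954) but did within trial 2 (-0.67, adjusted p = 0.0237). In females Dnajc3 was at 1.70, 1.75, 2.05 and 2.04 after meth and 1.70, 1.71 and 1.85 after PBS, a log2 fold change of 0.13 (adjusted p = 0.747).

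Of the transcription factors, Xbp1 (A_52_P185079) was at 1.16, 1.18, 1.17 and 1.23 in male meth hearts and 1.23, 1.25, 1.41 and 1.48 in male PBS hearts. The groups did not overlap (exact permutation test, p = 0.0286), and the log2 fold change of -0.16 did not pass (standard error 0.13, adjusted p = 0.672). In females Xbp1 was at 1.49, 1.56, 1.98 and 1.98 after meth and 1.43, 1.41 and 1.90 after PBS, with the 3 highest values on slide 4 (log2 fold change 0.17, adjusted p = 0.758). Herpud1 and Xbp1 were the 2 of 10 genes without overlap in males, and Ddit3 and Trib3 those in females. Of all genes, 11.6% had no overlap in males and 7.01% in females.

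Atf4 (A_52_P139727), which encodes the factor that PERK signalling brings up through translation, was at 1.05 to 1.40 in male meth hearts and 1.26 to 1.47 in male PBS hearts. It was at 1.38 to 1.48 in female meth hearts and 1.48 to 1.52 in female PBS hearts. Its log2 fold change was -0.12 in males (95% confidence interval -0.28 to 0.037) and -0.048 in females (-0.22 to 0.12), where a shift by the median turned it to 0.027. Its messenger RNA did not pass while those of its targets Trib3 and Ddit3 did over both sexes. Asns (A_51_P125745) encodes asparagine synthetase, an ATF4 target that answers to amino acid shortage. In males it was at 0.77, 1.25, 0.45 and -0.01 after meth and 0.58, 0.24, 0.14 and 0.20 after PBS, the widest range of the 10 genes among male meth hearts. Its log2 fold change was 0.33 in males (standard error 0.18, adjusted p = 0.486), with 0.60 in trial 1 and 0.052 in trial 2, and 0.20 in females (standard error 0.19, adjusted p = 0.796).

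The response was then compared between the sexes. Slide 3 held only males and slide 4 only females, and by the titles trial 2 held only males. Differences between the sexes therefore cannot be fully told apart from those between slides, scan sessions and trials. For the male minus the female log2 fold change, 0 of 10 genes passed in limma (2 at an unadjusted p under 0.05), and 0.155% of all genes did. The value was above 0 for 1 of 10 genes (Asns), against 42.2% of all genes, and its median was -0.27, beside -0.038 for all genes. The furthest from 0 by p were Dnajc3 at -0.40 (95% confidence interval -0.72 to -0.080, adjusted p = 0.510) and Ddit3 at -0.35 (-0.62 to -0.067, adjusted p = 0.512). Hspa5 was at -0.53 (-1.24 to 0.18), and Trib3 at -0.037 (-0.26 to 0.19). For Trib3 and Asns, and for Herpud1 (-0.062), the sign turned under other settings given in the closing section. Between PBS hearts of males and females, 0 of 10 genes passed in limma by their brightest probes (0 also at an unadjusted p under 0.05) and 0.548% of all genes did. The other Hsp90b1 probe had -0.35 there (limma, unadjusted p = 0.00498, adjusted p = 0.157). Atf4 was lower in all 4 male PBS hearts than in all 3 female ones, by a log2 value of -0.18 (adjusted p = 0.345, exact permutation test p = 0.0571).

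The other genes of the pathway were taken from 5 lists of 72 genes, of which 68 were tested. In males 1 passed higher and 1 lower, where 1.34% of all genes passed. In females 0 passed in limma, where 0.443% of all genes did, and 7 had an unadjusted p under 0.05, where 7.82% did. Over both sexes 4 passed, each higher after meth, where 2.23% of all genes did. Of the 6 sensors and their activating proteases (Ern1, Eif2ak3, Atf6, Atf6b, Mbtps1 and Mbtps2), 0 passed in limma in any of these comparisons, nor did any reach an unadjusted p under 0.05. The same holds for the 5 eIF2alpha kinases and regulators.

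Among the 29 tested targets of ATF4 and CHOP, 22 had a positive log2 fold change over both sexes, where 51.8% of all genes did, and 3 passed, where 2.23% of all genes did. Their median was 0.077, beside 0.0047 for all genes. The list was chosen with earlier results of these data known, so these shares describe it and test nothing. Cth, which encodes the cysteine-producing enzyme cystathionine gamma-lyase, was higher by 0.62 (standard error 0.12, adjusted p = 0.0198). Stc2, which encodes the secreted glycoprotein stanniocalcin 2, was higher by 0.37 (standard error 0.068, adjusted p = 0.0135). Mthfd2, a mitochondrial enzyme of folate metabolism, was higher by 0.32 (standard error 0.062, adjusted p = 0.0199).

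In single hearts, Stc2 was at -0.79, -0.72, -0.82 and -0.90 in male meth and -1.10, -0.95, -1.30 and -1.37 in male PBS hearts. It was at -1.14, -1.19, -1.08 and -0.94 in female meth and -1.49, -1.64 and -1.25 in female PBS hearts. Neither sex overlapped, with a log2 fold change of 0.37 for males (adjusted p = 0.0909) and for females (adjusted p = 0.124). Cth had 0.72 for males (adjusted p = 0.0679) and 0.53 for females (adjusted p = 0.246), and Mthfd2 0.34 (adjusted p = 0.0919) and 0.29 (adjusted p = 0.194). Without the arrays of slide 4, Cth missed the threshold over both sexes (0.67, adjusted p = 0.0682), as it did with normexp background correction (0.35, adjusted p = 0.393). With normexp, Stc2 (0.26, adjusted p = 0.120) and Mthfd2 (0.19, adjusted p = 0.886) missed it too. With trial 1 alone, adjusted p was 0.105 for Cth, 0.198 for Stc2 and 0.143 for Mthfd2, and with no trial term it was 0.0952 for Mthfd2. The stress transcription factor Atf3 was at -0.21, -0.019, -0.017 and -0.30 in female meth and -0.60, -0.77 and -0.84 in female PBS hearts, a log2 fold change of 0.60 that did not pass (adjusted p = 0.197), and had -0.31 in males (adjusted p = 0.497).

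The list labelled ER folding enzymes also holds chaperones, such as Hyou1, Calr and Canx, and other folding factors. Among its 16 tested genes, 11 had a negative log2 fold change in males (median -0.13) and 14 a positive one in females (median 0.068). Of all genes, 44.9% were positive in males and 58.5% in females. The male minus the female value was negative for 15 of 16, with a median of -0.17. For it 0 passed in limma, where 0.155% of all genes did, and 3 had an unadjusted p under 0.05, where 8.11% did. Of all genes, 42.2% were positive for it, with a median of -0.038. It was also negative for 10 of 12 genes of ER-associated degradation (median -0.13) and for 15 of 29 ATF4 and CHOP targets. Of the 6 sensors and proteases 2 were negative, and of the 5 eIF2alpha kinases and regulators 3. Negative too were 6 of 8 cardiomyocyte markers (median -0.14) and 0 of 7 secretory airway markers. Among the 16 genes of the folding list, Manf, a secreted ER protein induced by ER stress, was the 1 that passed. In male meth hearts it was at 1.60, 1.37, 1.47 and 1.60 and in male PBS hearts at 1.99, 1.78, 2.23 and 2.45, lower on each of the 4 meth arrays. It fell by 0.60 on the log2 scale (standard error 0.12, adjusted p = 0.0408). With the replicate block the adjusted p was 0.0816, and with 1 array left out the call was lost in 11 of 15 cases, those of the 4 male PBS arrays among them. The female log2 fold change of Manf was 0.12 (adjusted p = 0.833), and the sexes did not differ past the threshold (-0.73, adjusted p = 0.305).

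Of the 12 genes of ER-associated degradation, Derl3 passed. It encodes a derlin found mostly in secretory cells. In male meth hearts it was at -4.17, -3.20, -4.16 and -3.28 and in male PBS hearts at -5.14, -5.17, -4.85 and -4.86, of which 1 of 4 showed it well above background. The log2 fold change was 1.30 (standard error 0.23, adjusted p = 0.0223) in males, 0.91 (standard error 0.25, adjusted p = 0.137) in females and 1.11 over both sexes (standard error 0.17, adjusted p = 0.00620). With the replicate block the male adjusted p was 0.0712, and with normexp background correction the male value was 0.33 (adjusted p = 1.00). The call over both sexes was lost with normexp (0.39, adjusted p = 0.497) and without the arrays of slide 4 (1.02, adjusted p = 0.0585).

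Markers of other cell types moved with the treatment. The 7 tested markers of secretory airway cells passed in males, each higher after meth, and their summed linear signal (in units of the 75th percentile) was 36.5 to 194 in male meth and 0.532 to 0.615 in male PBS hearts, where 3 of 7 were well above background on no array. In females 1 of 7 passed (Bpifa1), and the sum was 1.26 to 4.16 after meth and 1.68 to 3.34 after PBS. Of 7 markers of B and plasma cells, Jchain passed in males (log2 fold change 3.00, adjusted p = 0.0299), with sums of 2.01 to 6.71 after meth and 1.51 to 1.96 after PBS. Of 4 ciliated airway markers, Foxj1 and Dynlrb2 passed in males. Of 5 white fat markers, Cidec and Retn passed over both sexes, with sums of 8.90 to 54.9 in male meth, 5.74 to 22.6 in male PBS, 14.98 to 25.5 in female meth and 6.67 to 10.1 in female PBS hearts. The single markers named here were chosen after their values were seen. The part of these cell types in the values of Derl3, Manf, Trib3, Ddit3 and the other genes was not tested.

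**Figure D3:**
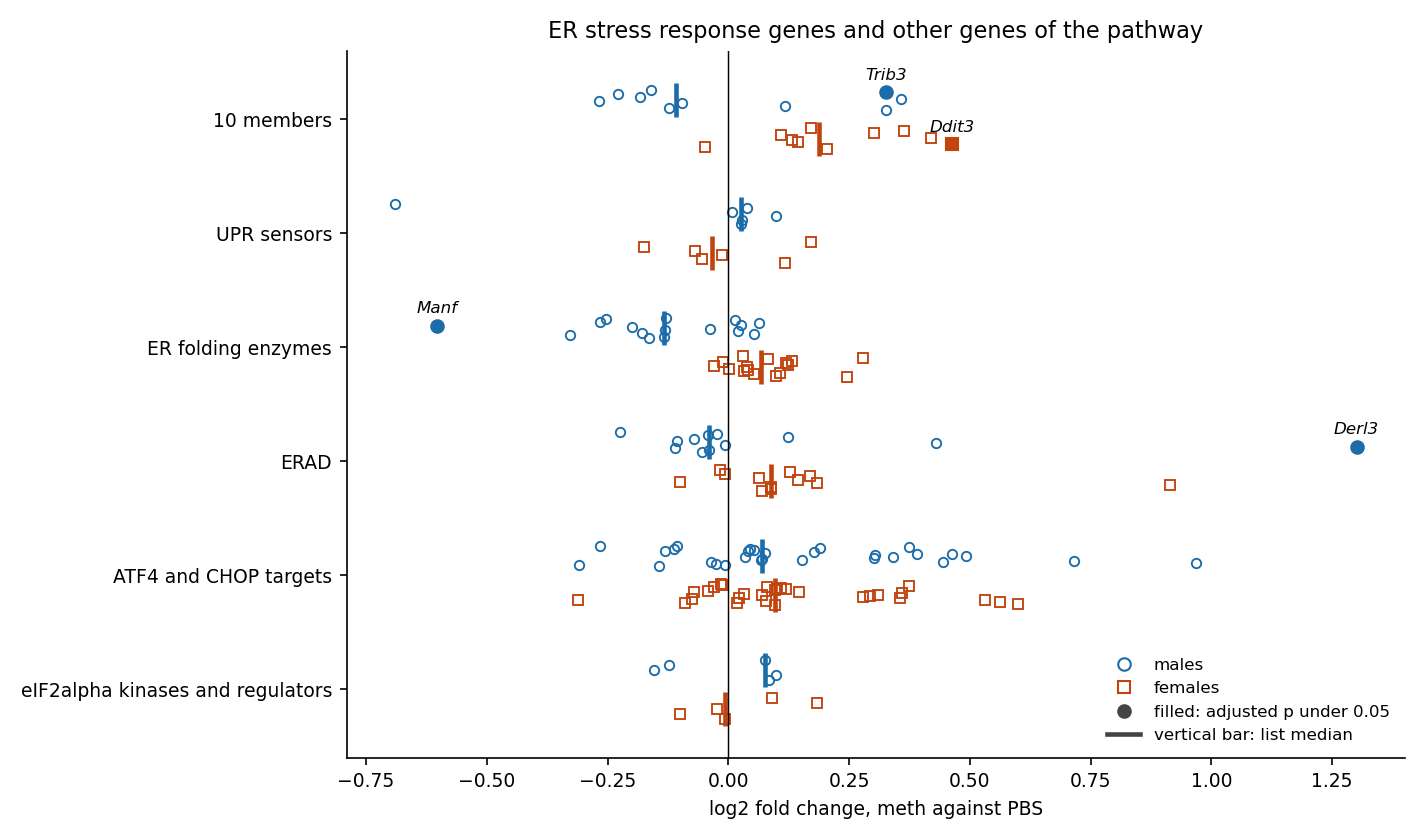
Log2 fold change after meth against PBS (horizontal axis) for the 10 genes and for the tested genes of 5 pathway lists, in males and females. Each symbol is a gene, filled where it passed the adjusted threshold, and vertical bars are list medians. Most genes of the list labelled ER folding enzymes, which also holds chaperones, lie below 0 in males (11 of 16) and above 0 in females (14 of 16). Of all genes tested, 44.9% lie above 0 in males and 58.5% in females.

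Within groups, some of the 10 genes varied together. Each value was centred on the mean of its group, and the 9 other genes were compared with Hspa5 over the 15 arrays. Hsp90b1 followed Hspa5 (Pearson r = 0.83, exact permutation test within groups, p = 6.03e-05, adjusted over 9 relations 0.000543; Spearman rho = 0.89, adjusted p = 0.000977). Herpud1 did too (r = 0.86, exact permutation p = 0.00122, adjusted 0.00548; rho = 0.85, adjusted p = 0.0117). These permutations exchange the arrays of a group whatever their slide or trial. Meth and PBS arrays of 1 slide shared deviations from their group means (r of 0.257 to 0.664). The arrays of a group are thus not freely exchangeable, and these p-values may be too small. Without the 2 arrays farthest from the Hspa5 median, female PBS replicate 3 and female meth replicate 2, r was 0.83 and 0.78. Hspa5, Hsp90b1 and Herpud1 are 3 of the 4 genes with a motif match in the promoters printed above. The other, Dnajc3, had r = -0.077 with Hspa5, and a link between motif and correlation was not tested.

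The slides moved some of these relations. A slide held 3 or 4 arrays, too few for a value of its own, and values were therefore also centred on group and slide. The arrays of a group cannot be exchanged across slides after this, so these values are a description with no test. Herpud1 then had r = 0.71 with Hspa5 (rho = 0.72) and Hsp90b1 r = 0.62 (rho = 0.62). Dnajc3 had r = 0.72 (rho = 0.65), against r = -0.077 (exact permutation, adjusted p = 0.841) without the slide. Xbp1 turned from r = -0.63 (exact permutation, adjusted p = 0.232) to 0.55 (rho = 0.53). Within their groups, the 3 hearts of slide 4 were high in Xbp1 and low in Hspa5. Atf4, Ddit3, Trib3 and Asns had an r between -0.35 and 0.12 with Hspa5 in the first form, each with an adjusted p over 0.05, and between -0.32 and -0.15 in the second. High correlations with Hspa5 were frequent on these arrays. Among 14203 genes the most alike over the 15 arrays were Dis3l2 (r = 0.95), Hspa9 (0.93), Tmem144 (0.93), Tasp1 (0.92) and Osbpl3 (0.92), while Herpud1 came 132nd and Hsp90b1 249th.

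**Figure D4:**
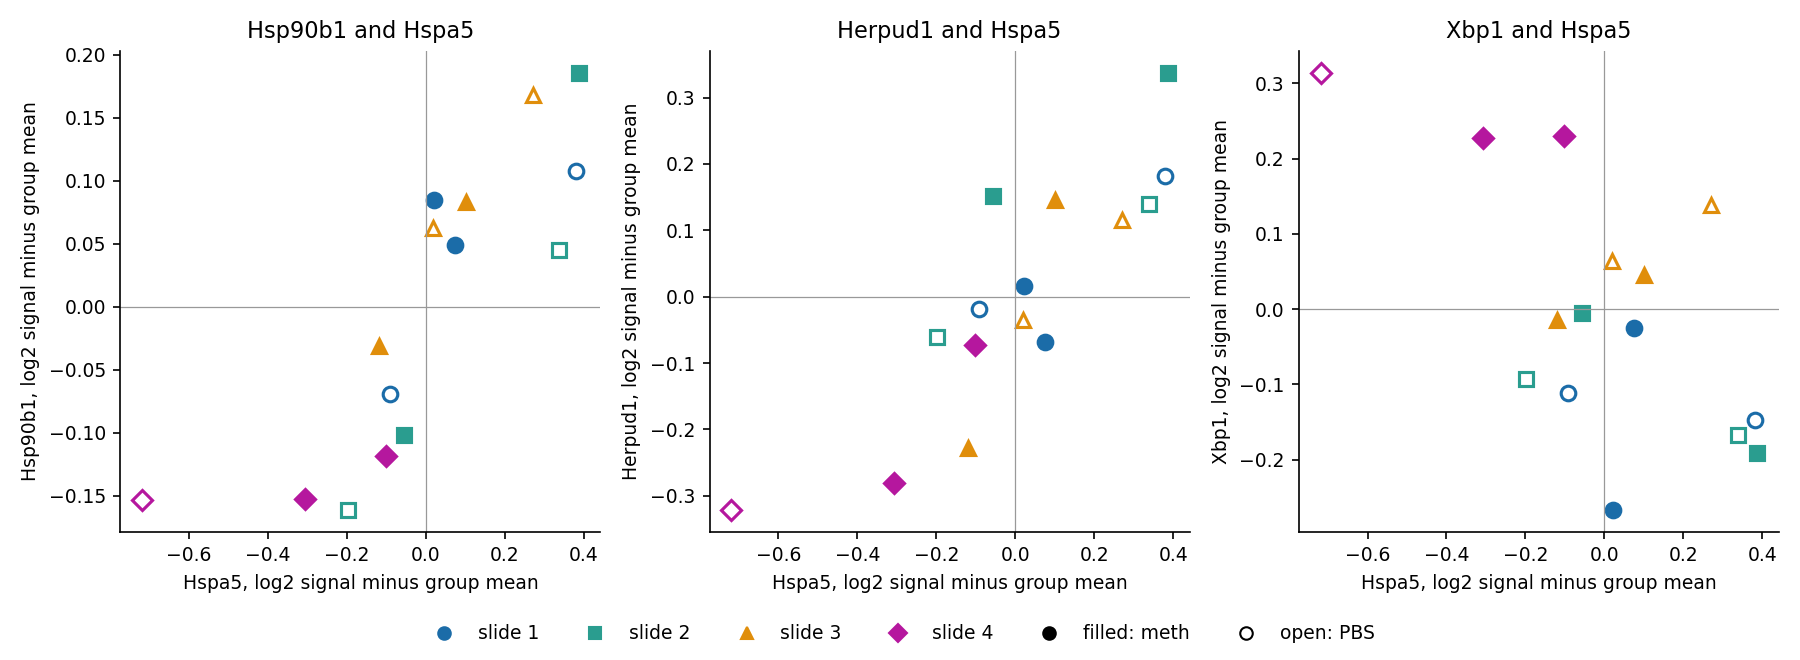
Hsp90b1, Herpud1 and Xbp1 (vertical axes) against Hspa5 (horizontal axes) in the 15 hearts, as log2 signal minus the mean of the heart's group, with the slide as symbol and filled symbols for meth. Hsp90b1 and Herpud1 follow Hspa5 (r = 0.83 and 0.86), and in Xbp1 the 3 hearts of slide 4 lie at the upper left.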

How the data were processed

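Heart RNA of 15 mice was labelled with Cy3 and hybridised by the authors, who extracted a background-subtracted intensity per spot with Agilent Feature Extraction (version 9.1 by the submitters' processing notes and 10.5.1.1 per the file headers). These deposited intensities carry no scaling across arrays. A second deposited table, in log2 units, differs from the log2 signal by 1 constant per array and served as an alternative.

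Control and outlier-flagged spots (45 to 88 spots on an array) were left out, repeated spots of 1 probe were averaged on the log2 scale, and the 75th percentile of an array was subtracted from its values. Probes had to be well above background in 3 or more of the 15 arrays, and the 28367 that passed were fitted with limma 3.58.1 in R 4.3.3 (lmFit and eBayes, 4 groups and trial), two-sided. Sex, treatment and replicate came from the labels. The fit was tested on simulated data. Exact permutation tests between groups compared the absolute difference of means and exchanged arrays whatever their slide or trial. A gene was given by its brightest probe.

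Same-numbered meth and PBS arrays lay on 1 slide, and their deviations from the group means correlated by 0.257 to 0.664 over 23820 probes. Arrays with different numbers were not compared, and slide 3 held replicates 1 and 2 of the trial 2 males. The male means were taken over both trials, so slide and trial cannot be told apart in the male correlations.

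The members and lists were chosen with earlier results of these data known. From the pathway lists, up to 8 genes past the threshold, with the largest change, were named for each of the 3 meth comparisons, and where fewer than 4 passed, the 4 with the smallest p. Of the 72 pathway and 54 marker genes, 2 of each were not matched to a probe. Motifs were searched in RefSeq promoters (GRCm38.p6). The alternatives were normexp background correction (offset 50), quantile or median scaling, the authors' table, a floor, no filter or one on all 15 arrays, other covariates and blocks, trial 1 alone, the methods' t-test, the mean over probes and leaving out each array. Plots used matplotlib 3.10.9.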

Additional observations from a re-analysis of the deposited data

How the results depend on the processing

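With 1 setting changed at a time, the count of the 10 genes past the threshold in males went from 1 to 0 with normexp background correction, a median shift, a floor, no filter, a filter on all 15 arrays, no trial term, the trial of the source names, the replicate block, trial 1 alone, the mean over probes, both forms of the methods' t-test and, chosen after seeing the data, without the arrays of slide 4. With an array left out it was 0 to 1. In females it went from 1 to 0 with normexp, quantile scaling, no filter, no trial term, the replicate block, trial 1 alone, the mean over probes, both forms of the t-test and without slide 4, and to 2 with a median shift, a filter on all 15 arrays and the slide or scan session as a block. With an array left out it was 0 to 1. Over both sexes it went from 2 to 1 with normexp, no filter and without slide 4, to 0 with no trial term and with trial 1 alone, and to 3, by the gain of Herpud1, with quantile scaling, the trial of the source names and the slide or scan session as a block. With normexp the 1 gene was Herpud1 (adjusted p = 0.0364), and Trib3 (0.0567) and Ddit3 (0.255) were lost. With an array left out it was 1 to 2. Trib3 over both sexes passed in 27 of 30 alternatives (adjusted p up to 0.110), Ddit3 in 14 of 30 and Herpud1 in 6 of 30. Of these 30, 15 leave out 1 array each, and the authors' table is scaled like the main values. The alternatives are therefore not independent checks. The replicate block also gained Herpud1 and changed no other call among the 10 genes than those given above. The number of genes that vary with Hspa5 went from 2 to 1 with normexp and to 4 with values centred on group and slide. The permutations ignored the slide in each of these forms. The first counts may therefore be too high, and the last count is no test.

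Values near 0 changed sign, all of them without a call. For meth against PBS, Ddit3 in males was -0.039 with trial 1 alone, and Atf4 in females 0.027 with a median shift. With an array left out, Hspa5 in females ran from -0.059 to 0.49. Over both sexes, Hspa5 was -0.0066 with normexp, -0.042 without slide 4 and -0.14 to 0.13 with an array left out. Xbp1 was -0.0063 with quantile scaling, -0.017 with the trial of the source names, -0.033 with the slide or session as a block, -0.032 with the replicate block, -0.030 without slide 4 and -0.036 to 0.084 with an array left out, and Dnajb9 was -0.0041 to 0.053. With trial 1 alone, Hsp90b1 was 0.0075, Dnajc3 0.022 and Atf3 -0.073. For the male minus the female response, Trib3 was 0.0010 with normexp, 0.040 with the mean over probes and -0.11 to 0.015 with an array left out. Herpud1 was 0.051 with quantile scaling, 0.020 with trial 1 alone and -0.16 to 0.099 with an array left out, and Asns -0.029 to 0.27. With a median shift, the median male minus female value over the 28367 probes tested was -0.12, beside -0.014 with the authors' table, which is scaled like the main values. Between male and female PBS hearts it gave Dnajc3 0.024, Ddit3 0.0051, Trib3 0.094 and Asns 0.12. Asns was 0.054 with normexp, and Dnajc3 0.075 with no trial term and 0.025 with the trial of the source names. Without slide 4, Hspa5 was -0.11 and Herpud1 -0.025. With an array left out, Hspa5 was -0.11 to 0.44, Herpud1 -0.025 to 0.23, Trib3 -0.079 to 0.046 and Asns -0.081 to 0.18. The cause of these shifts was not tested. All member probes were well above background, whereas Derl3 was not on 3 of 4 male PBS arrays.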
